A study of Mus musculus with 9 samples.

Results

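The 79 genes described here encode proteins of the cytosolic ribosome. They were taken by name and by biotype: protein-coding rows whose symbol was Rpl or Rps followed by a number and at most 1 letter of a, x or l, the stalk proteins Rplp0, Rplp1 and Rplp2, and Rpsa. Of the 31167 genes of the FPKM table, 48 were members of the large subunit and 31 of the small subunit. FPKM is a read level corrected for exon length and library size, and such levels depend on the exon length taken for each gene.

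RNA was sequenced from primary renal tubular epithelial cells of C57BL/6 mouse kidney in 3 groups of 3 libraries. Sham cells were the negative control, described by the study as untreated. The protocol text of every sample mentions transfection, so whether Sham and H/R cells received reagent or an empty vector is not known. H/R cells passed 6 h at 1.0% oxygen in medium without glucose and then 18 h of reoxygenation in complete medium, a culture model of ischemia and reperfusion. EGR1OV cells were transfected with a plasmid that drives Egr1, a zinc finger transcription factor, from the cytomegalovirus promoter, and their labels name no hypoxia. No empty plasmid is named for these libraries, so Egr1 and transfection cannot be told apart in the EGR1OV group. No label says that replicates came from separate mice or cultures, so p-values measure only the spread between these libraries.

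A ribosome is built from ribosomal RNA and one copy each of most ribosomal proteins, and the stalk of the large subunit carries several copies of Rplp1 and Rplp2. Ribosomal protein transcripts are among the most abundant of a cell. Most of them start with a C followed by a run of pyrimidines, the terminal oligopyrimidine (TOP) start, through which the mTOR complex and the RNA-binding protein Larp1 set how much of the transcript is translated and how long it lasts. Tubule cells that regrow after ischemia have to make new protein, and ribosomes do that work.

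Recovered depth was 16183609 to 18384020 reads a library. Egr1 averaged 6.40 ± 0.443 FPKM over the Sham libraries, 7.88 ± 0.60 over H/R and 42.6 ± 2.84 over EGR1OV (SD, n = 3), and EGR1OV exceeded Sham by 2.56 on the log2 scale (adjusted p = 2.19e-09). Summed macrophage and leukocyte markers (12 genes) ran from 159 to 166 FPKM in Sham, 136 to 145 in H/R and 45.2 to 53.1 in EGR1OV, with no marker at 0 in a whole group. Summed tubule markers (16 genes in the table) ran from 2013 to 2051, from 1868 to 1952 and from 1312 to 1422 FPKM. Of 11 tested, 4 were higher and 6 were lower in EGR1OV than in Sham. The keratins Krt8 and Krt18 weigh most in this sum, at means of 1014 and 685 FPKM in Sham and 618 and 412 FPKM in EGR1OV. The tubule markers Pax8 (12.8 to 13.4 FPKM in Sham), Cdh16 and Epcam were expressed, while Umod of the thick ascending limb was at 0 in all 9 libraries. Among proximal tubule markers Hnf4a was at 0 throughout Sham and Slc34a1 throughout EGR1OV. Proximal Lrp2 and Aqp1 were detected in every library and were among the 6 lower tubule markers, against 4 higher. Lrp2 ran from 3.51 to 3.67 FPKM in Sham and 1.19 to 1.28 in EGR1OV (log2 change -1.05, adjusted p = 1.01e-07). Aqp1 ran from 1.23 to 1.43 and from 0.275 to 0.489 FPKM (log2 change -0.75, adjusted p = 7.45e-05). Summed endothelial markers (8 genes) ran from 11.3 to 11.6, from 11.6 to 11.9 and from 8.09 to 8.63 FPKM, and 3 of 6 tested were lower in EGR1OV than in Sham. Summed fibroblast markers (8 genes) ran from 36.5 to 38.4, from 44.4 to 45.1 and from 41.5 to 46.1 FPKM, and of 5 tested 3 were higher and 1 was lower in H/R than in Sham. These marker sums moved with the groups, and their part in the changes of the ribosomal protein transcripts was not tested. In bulk RNA, fewer cells of a type and less RNA per cell cannot be told apart.

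TOP starts were read from RefSeq promoter windows of mouse (GRCm38.p6), which were found for 59 of the 79 members. The strict form, a C at the annotated start followed by at least 4 bases that were each C or T, was held by 13 members (22.0%) and by 3.0% of the 27025 genes with a window. Within 10 bases of the annotated start the same letters were found in 37 members (62.7%) and in 34.4% of all genes. The windows of 6 named members with the strict form are shown because this start is what the family is known for. Each line runs 5′ to 3′ from 10 bases before the start, and capitals mark the unbroken pyrimidines from the annotated start onward. In all 6 the base just before the start is also a C or T.
Rps6 (chr4:86857348-86857377, minus strand): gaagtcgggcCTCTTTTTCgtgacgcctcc
Rpl35 (chr2:39005112-39005141, minus strand): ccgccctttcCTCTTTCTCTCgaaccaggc
Rpl28 (chr7:4792955-4792984, plus strand): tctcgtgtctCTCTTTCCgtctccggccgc
Rps27 (chr3:90213629-90213658, minus strand): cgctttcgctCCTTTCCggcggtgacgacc
Rplp2 (chr7:141447641-141447670, plus strand): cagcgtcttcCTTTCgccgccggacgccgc
Rps21 (chr2:180257369-180257398, plus strand): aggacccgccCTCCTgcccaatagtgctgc
The marked stretches were 9, 11, 8, 7, 5 and 5 bases long in this order, not counting pyrimidines before the start. In EGR1OV against Sham the median log2 change was -0.18 both in the 13 members with the strict form and in the 43 tested members with a window but without it.

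Letters of the EGR1 site (GCGTGGGCG or GCGGGGGCG, either strand) were found in the windows of 7 of the 59 members (11.9%), against 3.9% of all genes and 7.7% of tested genes. The 7 members were Rpl12, Rpl27a, Rpl7a, Rps13, Rps2, Rps24 and Rps27l. In EGR1OV against Sham their log2 changes ran from -0.29 to -0.03 with a median of -0.15, and those of the 49 tested members without the letters ran from -0.37 to 0.09 with a median of -0.18. A match of letters does not show binding.

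In Sham the median member was at 161 FPKM, with quartiles at 85.9 and 247 FPKM. Of the 79 members, 69 were at 50 FPKM or more, 6 were at 500 FPKM or more, and 14 stood among the 100 highest genes of the table. The small subunit had a median of 161 FPKM over 31 members and the large subunit 162 FPKM over 48 members. The highest member, Rplp1, was 8.12 times the median. Most of these proteins are used once per ribosome, but the stalk carries several copies of Rplp1. The length used was that of all annotated exons of a gene, 499 bases for Rplp1 and 4080 bases for Rps20, and an FPKM over a long exon sum is lower for the same number of transcripts.

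The 3 highest members in Sham were Rplp1, Rplp0 and Rps2. Rplp1, an acidic stalk protein that recruits elongation factors, stood at 1263, 1291 and 1364 FPKM in Sham. Its stalk partner Rplp2 was at 118, 127 and 132 FPKM, and the mean of Rplp1 was 10.4 times that of Rplp2. In reads they were closer, with 10366 to 11238 for Rplp1 and 4033 to 4586 for Rplp2 in Sham, over exon sums of 499 and 2072 bases. Rplp0, the stalk base that anchors both, was at 954, 936 and 980 FPKM. The 3 Rplp1 values lay above every Rplp0 value, and the Rplp0 values lay above every Rps2 value (756, 752 and 778 FPKM). Rps2 is a small subunit protein near the entry of the mRNA channel.

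At the other end were Rpl39l, Rpl3l and Rpl24. Rpl39l, a paralog of the exit tunnel protein Rpl39 known from the testis, was listed at 0 in 8 of 9 libraries and at 0.0678 FPKM in H/R replicate 3. Rpl3l, the paralog of Rpl3 known from heart and skeletal muscle, did not exceed 0.149 FPKM in any library. These levels are a few reads and allow no comparison between groups. Their partners Rpl39 and Rpl3 were at 86.3 to 93.1 and 246 to 251 FPKM in Sham. Over the aligned coding bases of the first annotated transcripts (GENCODE M21), Rpl39l and Rpl39 were 85.3% identical over 156 bases, and Rpl3l and Rpl3 were 75.2% identical over 707 bases.

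The third paralog was abundant. Rps27l, which shared 76.1% of 255 coding bases with Rps27 and is known as a target of p53, was at 168, 167 and 179 FPKM in Sham, above Rps27 at 86.2, 87.7 and 89.2 FPKM. In all 9 libraries Rps27l was the higher of the pair. Of its stretches of 50 bases, 11.2% were found in annotated transcripts of other genes.

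Rpl24 passed the name rule at 0.0547 to 0.412 FPKM, on 3 to 7 reads a library in Sham. Its transcript shared 51.8% of its stretches of 50 bases with other annotated transcripts, and 96.7% of the reads of Rpl24 and its copies lay on the copies in Sham. The copy with the most reads, the processed pseudogene Gm12254, was at a mean of 15.8 FPKM. The same was seen to a lesser degree for Rpl23a, with 83.0% of reads on copies, Rpl21, with 61.4%, and Rpl35, with 49.6%. Levels of these 4 members are therefore uncertain. Over all members, 530 rows of the table were such copies, and the median member had 5.53% of its reads on them. Rpl13a, a large subunit protein that also silences interferon-induced transcripts, was the lowest tested member, at 4.63, 4.48 and 4.58 FPKM in Sham, with 19.5% of its reads on copies.

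**Figure D1:**
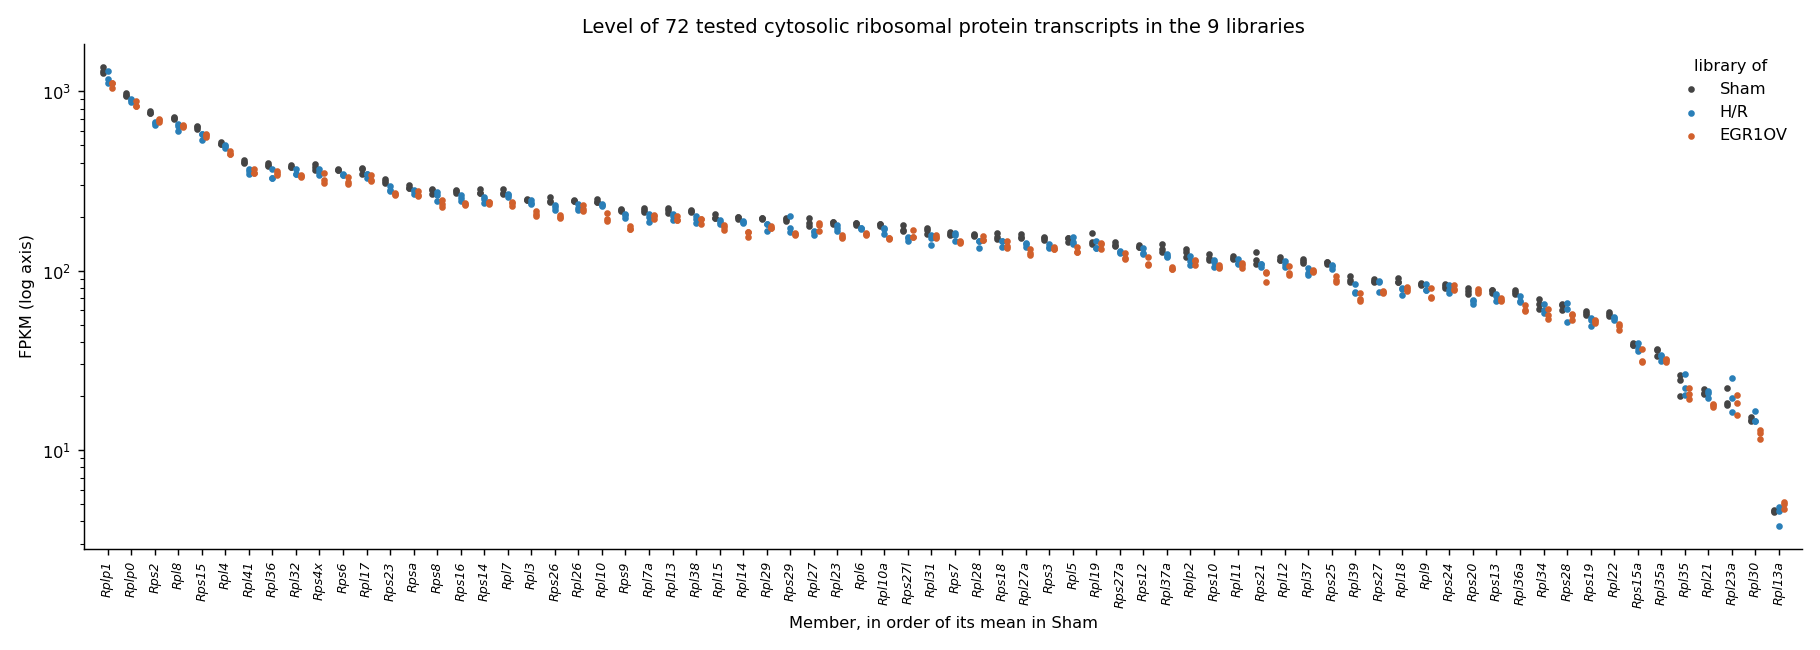
FPKM (log axis) of 72 tested members in each of the 9 libraries, in order of their mean in Sham, with 3 points a group. Rplp1 stands at the top near 1306 FPKM in Sham and Rpl13a at the bottom near 4.56 FPKM, and most members lie between 50 and 500 FPKM.

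Libraries of a group lay close together. The median coefficient of variation of the tested members was 2.35% among Sham, 4.18% among H/R and 3.08% among EGR1OV libraries. Of the 79 members, 76 passed the filter of a mean of at least 0.5 FPKM, and Rpl39l, Rpl3l and Rpl24 did not.

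The 79 members summed to 16567, 16509 and 17068 FPKM in the Sham libraries. They summed to 15888, 15370 and 14746 FPKM in H/R and to 14380, 14547 and 15023 FPKM in EGR1OV. Every H/R and every EGR1OV library lay below every Sham library, and the H/R and EGR1OV libraries overlapped. As a share of the reads recovered, the members held 2.89 ± 0.0496% of a Sham library, 2.67 ± 0.0876% of an H/R library and 2.54 ± 0.060% of an EGR1OV library (SD, n = 3 each). These are shares of a library and do not give ribosomal protein mRNA per cell.

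The share of all FPKM was less even between replicates of Sham and of H/R, though not of EGR1OV. The row Gm23935, annotated as a miRNA and counted in that sum, ran from 1697 to 19553 FPKM in Sham, from 3802 to 21700 in H/R and from 1494 to 9378 in EGR1OV. With all rows in the sum the members held 5.86 ± 0.141%, 5.33 ± 0.349% and 5.23 ± 0.0386% of FPKM. With protein-coding rows alone in the sum they held 6.41 ± 0.0809%, 5.97 ± 0.184% and 5.63 ± 0.108%.

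The balance of the subunits differed little in these sums. The large subunit summed to 1.56 ± 0.0085 times the small subunit among Sham libraries, 1.57 ± 0.0121 times among H/R libraries and 1.56 ± 0.0039 times among EGR1OV libraries (SD, n = 3). The Sham range of this ratio overlapped that of H/R and that of EGR1OV.

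**Figure D2:**
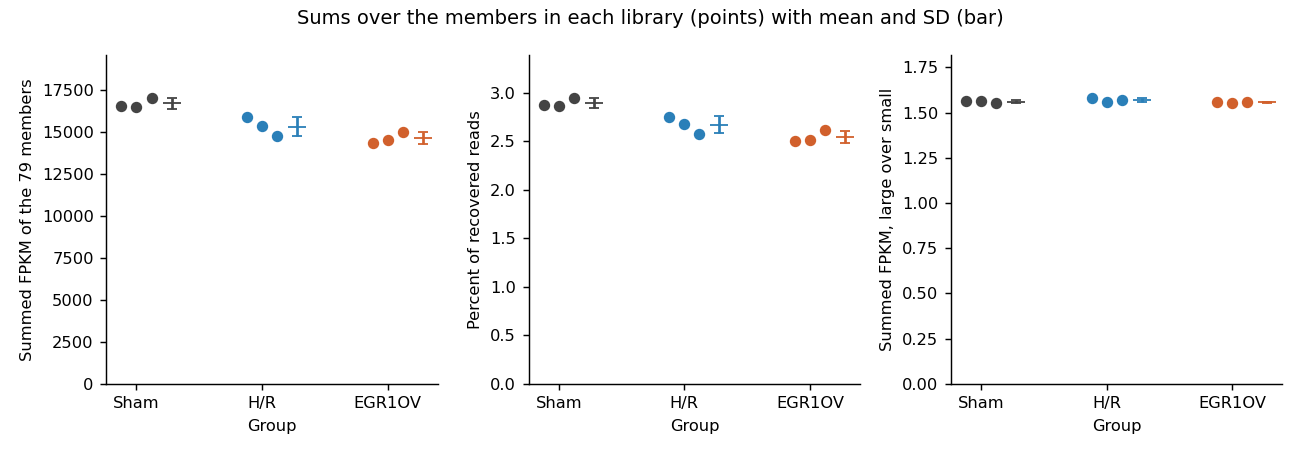
Summed FPKM of the 79 members, their percent of recovered reads, and the ratio of large to small subunit sums, by library (points) with mean and SD (bar), n = 3 a group. The sums of Sham, 16509 to 17068 FPKM, lie above those of H/R and EGR1OV, while the ratio stays near 1.56 in each group.

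EGR1OV was compared with Sham to see what differed after transfection with the Egr1 plasmid, with no empty plasmid named as a control. Of the 76 tested members, 64 were lower and 1 was higher at an adjusted p under 0.05 (84.2% and 1.32%), against 19.8% of all 13985 tested genes lower and 26.1% higher. The lower members were 37 of 45 in the large and 27 of 31 in the small subunit. The falls were small: the median log2 change was -0.18, a change of -12.0%, with quartiles at -0.24 and -0.15. Across all tested genes the median log2 change was 0.02.

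With a fold of at least 1.3 added to the limma call, 0 of 76 members passed, against 16.4% of all tested genes. At an unadjusted p under 0.05 the count past that fold was also 0, and it was 0 with limma voom on recovered reads. In 66 members (86.8%) every EGR1OV library lay below every Sham library, which held for 24.6% of all tested genes. The log2 change was below 0 in 73 of 76 members, and Rpl13a and Rps20 were among the 3 exceptions. Among the 861 other genes at 50 FPKM or more the median log2 change was -0.06 and 375 were lower, and the 69 members at that level had a median of -0.19.

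Rpl37a, Rps9, Rpl39 and Rps21 were among the 5 largest falls. Rpl37a, a zinc-binding large subunit protein (chromosome 1, 72711290 to 72713813), was at 132, 127 and 141 FPKM in Sham and at 102, 101 and 104 FPKM in EGR1OV. It fell by 0.37 on the log2 scale (SE 0.0361, adjusted p = 2.96e-05), just short of the 1.3-fold threshold, and the libraries did not overlap. Rps9, which lines the entry of the mRNA channel, was at 217, 215 and 221 FPKM in Sham and at 170, 169 and 178 FPKM in EGR1OV. It fell by 0.34 (SE 0.0307, adjusted p = 2.04e-05) with no overlap, and only 8.62% of its stretches of 50 bases were shared with other genes.

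Rpl39 was at 86.3, 88.2 and 93.1 FPKM in Sham and 69.2, 67.5 and 75.0 FPKM in EGR1OV, and fell by 0.33 (adjusted p = 0.000885). Rps21, whose TOP start is printed with the others, fell by 0.31 (adjusted p = 0.00295) from 115, 109 and 128 FPKM to 86.4, 97.3 and 98.3 FPKM. In neither of these members did the libraries of the groups overlap.

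Members of other known roles moved by less. Rps6, the phosphorylated target of the S6 kinases, was at 364, 361 and 370 FPKM in Sham and at 311, 304 and 331 FPKM in EGR1OV, a fall of 0.21 on the log2 scale (SE 0.0310, adjusted p = 0.000459). Rpl5 and Rpl11, which bind Mdm2 when ribosome assembly fails, fell by 0.19 (adjusted p = 0.00348) and 0.14 (adjusted p = 0.00597). Rpl3, at the peptidyl transferase centre, fell by 0.26 (adjusted p = 6.37e-05) and Rpl10, which joins the large subunit late in assembly, by 0.30 (adjusted p = 0.000178).

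Rps19, the gene most often mutated in Diamond-Blackfan anaemia, fell by 0.15 (adjusted p = 0.00783). Rpl22 fell by 0.23 (adjusted p = 0.000342), Rps27a, made as a fusion with ubiquitin, by 0.23 (adjusted p = 0.000271), and the X-linked Rps4x by 0.22 (adjusted p = 0.00529). Rpl41, among the shortest proteins known, fell by 0.18 (adjusted p = 0.00233), and Rpsa, also known as the laminin receptor precursor, by 0.13 (adjusted p = 0.00637). Rps27 fell by 0.20 (adjusted p = 0.00647). Its paralog Rps27l fell by 0.12 (adjusted p = 0.0463), a call that held in 8 of 20 alternative settings.

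The stalk proteins fell in the deposited scaling, and the sign of Rplp0 and Rplp1 depended on it. Rplp1 was at 1037, 1107 and 1116 FPKM in EGR1OV and fell by 0.27 (SE 0.0569, adjusted p = 0.00422), but was 0.18 higher after quantile normalization. Rplp0 was at 824, 825 and 885 FPKM and fell by 0.18 (adjusted p = 0.00201), but was 0.02 higher after quantile normalization. Rplp2 fell by 0.17 (adjusted p = 0.0182) from 118, 127 and 132 FPKM to 107, 113 and 114 FPKM. Its change stayed below 0 in all 20 settings, and the call was lost without Sham replicate 2 (adjusted p = 0.0551), without Sham replicate 3 (adjusted p = 0.0665) and without EGR1OV replicate 1 (adjusted p = 0.0652). In the deposited FPKM all 3 stalk transcripts were lower in every EGR1OV library than in any Sham library.

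Some members with the highest changes did not pass. Rpl13a was 0.09 higher on the log2 scale (adjusted p = 0.308), at 5.01, 5.15 and 4.67 FPKM in EGR1OV. Rps20, a protein of the small subunit head, was at 76.9, 74.1 and 79.5 FPKM in Sham and at 75.0, 79.4 and 76.7 FPKM in EGR1OV, a difference of 0.00 (SE 0.0350, adjusted p = 0.938), and its libraries overlapped. Rps24 (log2 change -0.03, adjusted p = 0.518) also did not pass. Other members that did not pass were Rpl19, Rpl23a, Rpl27, Rpl28, Rpl31, Rpl35 and Rps28, named after their values were seen.

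**Figure D3:**
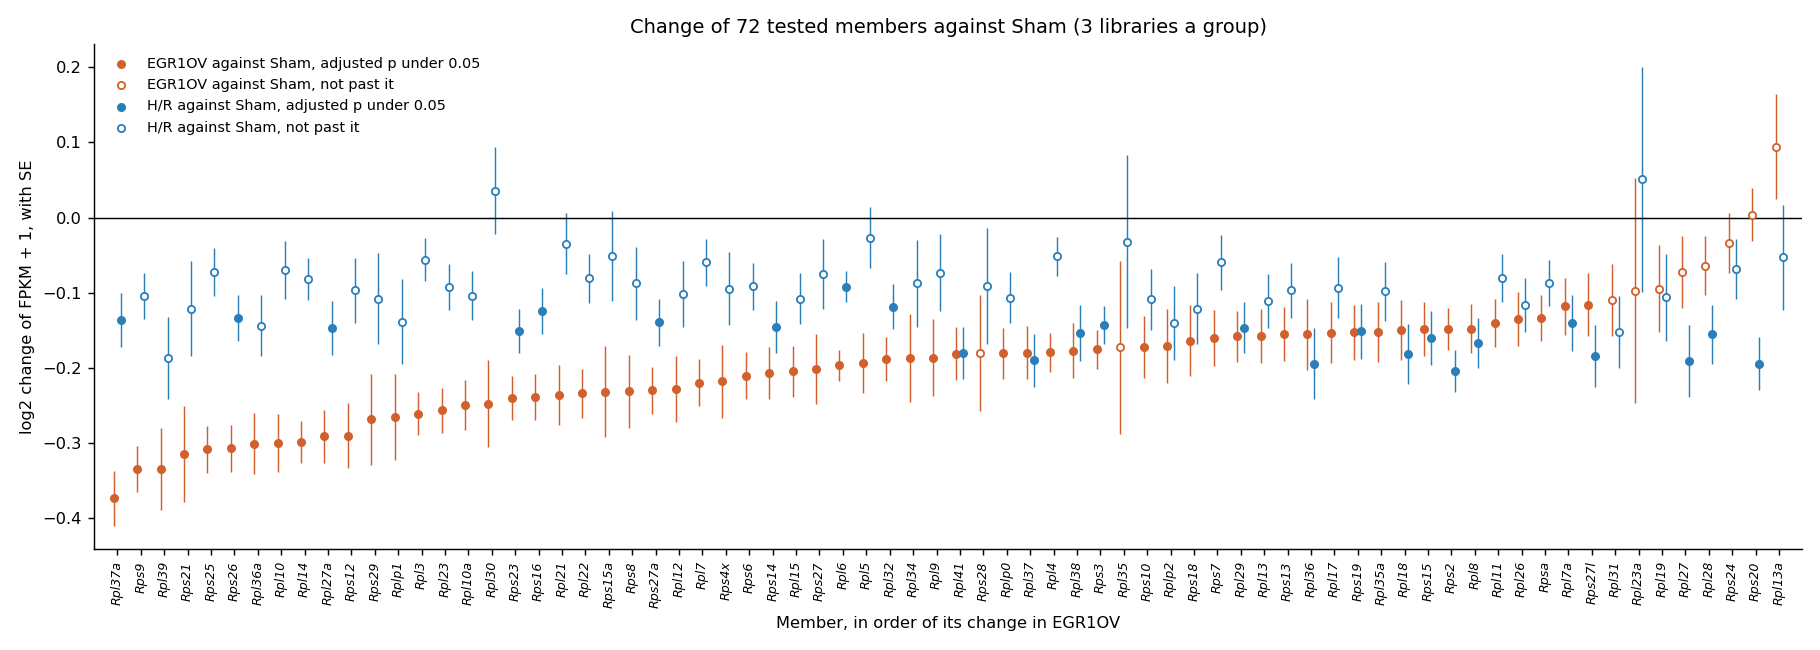
Log2 change of FPKM + 1 with its standard error for 72 tested members in EGR1OV against Sham and in H/R against Sham, in order of the EGR1OV change (3 libraries a group, shared Sham libraries). Filled points passed an adjusted p of 0.05: 62 lower of the 72 in EGR1OV, where Rplp0 and Rplp1 turned positive after quantile normalization, and 25 lower in H/R.

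The fall was of like size in members with few and with many shared stretches. The 14 tested members with under 10% of shared stretches had a median log2 change of -0.18, with 10 lower and 1 higher. The 18 members with at least 30% had a median of -0.18, with 15 lower and 0 higher. With the reads of copies added to each member, a setting added after seeing the data, 66 of 77 were lower and 1 was higher, and Rpl24 then passed the filter.

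H/R was compared with Sham to see what hypoxia and reoxygenation changed. Of the 76 members, 26 were lower (34.2%) and 0 were higher at an adjusted p under 0.05, against 7.54% and 4.15% of all tested genes. The lower members were 14 in the large and 12 in the small subunit. The median log2 change was -0.11, a change of -7.21%, and the changes ran from -0.20 to 0.05. The median over all tested genes was -0.03.

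At an unadjusted p under 0.05 the limma fit had 52 members lower and 0 higher, and voom on recovered reads also gave 0 higher. With a fold of at least 1.2 added, 0 of 76 members passed at either p and with voom, against 4.25% of all tested genes. In 53 members (69.7%) every H/R library lay below every Sham library, which held for 21.8% of all tested genes. The count of 26 was not stable. It was 7 after median-ratio scaling, 6 with no filter and 44 with voom on recovered reads. Leaving out Sham replicate 1, 2 or 3 gave 10, 14 and 7 lower members, and leaving out H/R replicate 2 or 3 gave 13 and 9. The median stayed below 0 in all of these settings.

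The 5 largest falls were in Rps2, Rps20, Rpl36, Rpl27 and Rpl37. Rps2 was at 756, 752 and 778 FPKM in Sham and at 674, 665 and 645 FPKM in H/R. It was lower by 0.20 on the log2 scale (SE 0.0277, adjusted p = 0.00286), with no overlap, and the call held in all 20 alternative settings. Rps20 was at 68.7, 67.4 and 64.9 FPKM in H/R and was lower by 0.19 (SE 0.0350, adjusted p = 0.0101), also in all 20 settings and with no overlap.

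Rpl36 and Rpl27, both large subunit proteins, were lower by 0.19 (adjusted p = 0.0317) and 0.19 (adjusted p = 0.0348). Those calls held in 9 and 12 of 20 alternative settings, with adjusted p up to 0.105 and 0.104. Rpl36 had the highest share of stretches found in other genes (81.1%). Rpl37, a large subunit protein that like Rpl37a holds zinc, was at 112, 110 and 115 FPKM in Sham and 104, 97.2 and 94.6 FPKM in H/R. It was lower by 0.19 (SE 0.0355, adjusted p = 0.0115), and this call held in all 20 settings.

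Of the members named for their roles, Rpl41, Rps27a, Rps19 and Rps27l passed in H/R. Rpl41 was lower by 0.18 (adjusted p = 0.0131), Rps27a by 0.14 (adjusted p = 0.0234), Rps19 by 0.15 (adjusted p = 0.0319) and Rps27l by 0.18 (adjusted p = 0.0239). The Rpl41 call held in all 20 alternative settings, while those of Rps27a, Rps19 and Rps27l held in 12, 10 and 14 of 20, with adjusted p up to 0.0873, 0.0975 and 0.0777. The Rps27l values of 154, 151 and 147 FPKM lay below all Sham values. Rplp0 (log2 change -0.11, adjusted p = 0.0754), Rplp1 (-0.14, adjusted p = 0.149), Rps6 (-0.09, adjusted p = 0.0909), Rpl5 (-0.03, adjusted p = 0.716) and Rpl11 (-0.08, adjusted p = 0.141) did not pass.

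Rpl23a, Rpl30, Rpl5 and Rpl35 were among the 5 members with the highest change in H/R, and none of them passed. Rpl30, which also regulates its own splicing, was at 14.7, 14.4 and 15.2 FPKM in Sham and at 16.5, 14.5 and 14.6 FPKM in H/R (log2 change 0.04, adjusted p = 0.740). Rpl23a was at 18.2, 22.2 and 17.8 FPKM in Sham and at 25.2, 19.5 and 16.3 FPKM in H/R (log2 change 0.05, adjusted p = 0.870). With the reads of its copies added its change was -0.18 (adjusted p = 0.0462, against 0.0462 to 0.992 over all alternatives).

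**Figure D4:**
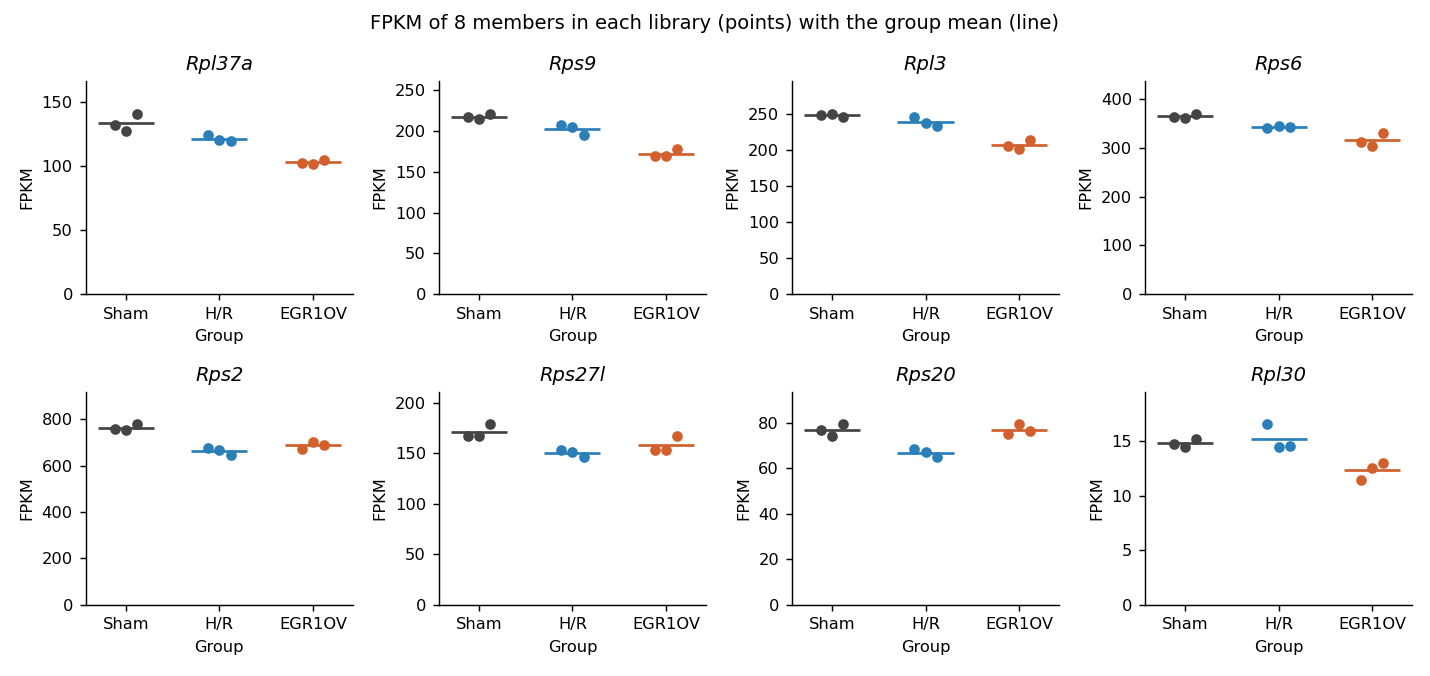
FPKM of 8 members in each library (points) with the group mean (line), 3 libraries a group, each axis from 0. Rpl37a, Rps9, Rpl3, Rps6 and Rpl30 are lowest in EGR1OV, and Rps2 and Rps20 are lowest in H/R.

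EGR1OV was also set directly against H/R, a comparison in which both the plasmid and the oxygen treatment differ. Of the 76 members, 33 were lower and 2 were higher at an adjusted p under 0.05 (43.4% and 2.63%), against 19.0% and 32.0% of all tested genes. The 33 were 18 members of the large and 15 of the small subunit. The median log2 change was -0.09, with 59 of 76 below 0, and the median over all tested genes was 0.05. With a fold of at least 1.3 added, 0 members passed in limma, also at an unadjusted p under 0.05 and with voom, against 18.9% of all tested genes. After median-ratio scaling 49 members were lower, and the median was -0.17. Without H/R replicate 1, 22 members were lower, and the median was -0.058.

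Rps20 was one of the 2 higher members. It differed by 0.20 on the log2 scale (SE 0.0350, adjusted p = 0.00120), and every EGR1OV library lay above every H/R library. Rpl13a (0.15, adjusted p = 0.111) and Rpl27 (0.12, adjusted p = 0.0650), next in order, did not pass.

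The 5 largest falls in this comparison were in Rpl30, Rpl37a, Rps25, Rps9 and Rpl10. Rpl30 was at 11.5, 12.5 and 13.0 FPKM in EGR1OV and lower than in H/R by 0.28 (SE 0.0579, adjusted p = 0.00282). Rps25, a small subunit protein used by some viral internal ribosome entry sites, was at 107, 106 and 102 FPKM in H/R and 86.6, 88.1 and 93.1 FPKM in EGR1OV. It was lower by 0.24 (SE 0.0315, adjusted p = 0.000213). Rpl37a, Rps9 and Rpl10 were lower by 0.24 (adjusted p = 0.000478), 0.23 (adjusted p = 0.000211) and 0.23 (adjusted p = 0.000818), and all 5 calls held in all 20 alternative settings.

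The 2 comparisons with Sham share the Sham libraries, so their values are given side by side. The log2 change of Rps6 was -0.21 in EGR1OV and -0.09 in H/R, that of Rpl3 -0.26 and -0.06, and that of Rps25 -0.31 and -0.07. None of these 3 members passed in H/R (adjusted p = 0.0909, 0.232 and 0.171). For Rps2 the values were -0.15 and -0.20, for Rpl41 -0.18 and -0.18, and for Rps20, which did not pass in EGR1OV, 0.00 and -0.19. The direct test placed Rpl3 (adjusted p = 0.000265), Rps25 and Rps6 (adjusted p = 0.0104) lower in EGR1OV than in H/R, while Rps2 (adjusted p = 0.122) and Rpl41 (adjusted p = 0.987) did not pass it.

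Other lists of the translation machinery are read against all tested genes, of which 26.1% were higher and 19.8% lower in EGR1OV against Sham, and 4.15% higher and 7.54% lower in H/R. Ribosomal proteins that the name rule left out come first. Of 9 in the table, 4 were lower and 1 was higher in EGR1OV against Sham, with a median log2 change of -0.16. In H/R 2 were lower and 0 higher, with a median of -0.05. Rps3a1 was at 644, 639 and 651 FPKM in Sham and 549, 552 and 564 FPKM in EGR1OV, a fall of 0.22 (SE 0.0271, adjusted p = 0.000163). Fau, a ubiquitin-like fusion that yields a small subunit protein, fell by 0.18 (adjusted p = 0.00507). Rpl7l1, a paralog of Rpl7 linked to ribosome assembly, rose by 0.38 (SE 0.0331, adjusted p = 1.33e-05), from 40.1, 39.2 and 41.2 FPKM to 54.8, 51.5 and 51.8 FPKM.

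Most TOP transcripts outside the family were also lower in EGR1OV than in Sham. Of 21 of them, 13 were lower and 2 were higher, with a median of -0.14, and the list holds the ribosomal genes Fau and Rack1. Of 13 elongation and release factors, 7 were lower and 1 was higher, with a median of -0.12. This list shares genes with the TOP list, among them Eef1b2, Eef1g and Eef1a1. Eef1b2, a nucleotide exchange factor of elongation, was at 162, 168 and 163 FPKM in Sham and 121, 123 and 129 FPKM in EGR1OV, a fall of 0.40 (SE 0.0326, adjusted p = 8.93e-06). Eef1a1, which brings aminoacyl-tRNA to the ribosome, fell by 0.21 (adjusted p = 0.000651) but was 0.02 higher after quantile normalization.

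In H/R the lower counts of these lists were near the share of all tested genes, 7.54%. Of the 21 TOP transcripts 1 was lower (4.76%) and 0 were higher, with a median of -0.03. Of the 13 elongation and release factors 1 was lower (7.69%) and 0 were higher, with a median of -0.04. The members' median in that comparison was -0.11. The median of all tested genes was -0.03.

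Of 52 ribosome biogenesis factors, 25 were higher (48.1%, against 26.1% of all tested genes) and 2 were lower (3.85%, against 19.8%) in EGR1OV against Sham, with a median of 0.12. In H/R 8 were higher (15.4%, against 4.15%) and 2 lower (3.85%, against 7.54%), with a median of 0.06. Mybbp1a, a nucleolar repressor and rRNA processing protein, rose by 0.44 (SE 0.0265, adjusted p = 1.13e-06) from 42.0 ± 0.680 to 57.2 ± 0.816 FPKM (SD, n = 3). Nop10, a core protein of the pseudouridylation particle, went the other way and fell by 0.44 (SE 0.0398, adjusted p = 1.84e-05). Of 16 genes of the RNA polymerase I machinery, 7 were higher and 0 lower in EGR1OV, and 0 passed in H/R. Polr1a, its largest subunit, rose by 0.31 (SE 0.0372, adjusted p = 0.000114).

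Of 39 initiation factors 10 were higher (25.6%) and 9 lower (23.1%) in EGR1OV, with a median of 0.02, which are near the values of all tested genes (26.1%, 19.8% and 0.02). In H/R 1 was higher and 1 lower. Eif6, which keeps the subunits apart until the large one is mature, rose by 0.45 (SE 0.0366, adjusted p = 9.43e-06). Of 77 mitochondrial ribosomal proteins, 27 were higher and 6 lower in EGR1OV (median 0.09), and 0 were higher and 11 lower in H/R (median -0.09). In EGR1OV the cytosolic and mitochondrial ribosomal proteins thus had medians of opposite sign, -0.18 and 0.09.

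Among 23 regulators of TOP translation 9 were higher (39.1%, against 26.1% of all tested genes) and 5 lower (21.7%, against 19.8%) in EGR1OV. In H/R 0 were higher and 6 were lower (26.1%, against 7.54%). The largest of these falls were in Eif4ebp1 (log2 change -0.30, adjusted p = 0.00454) and the sestrin Sesn2 (-0.29, adjusted p = 0.00209). Tsc1 (-0.22, adjusted p = 0.0286) and Maf1 (-0.20, adjusted p = 0.00235) came next. Larp1 was at 34.5, 34.7 and 33.3 FPKM in Sham and 44.0, 43.3 and 43.3 FPKM in EGR1OV, a rise of 0.34 (SE 0.0265, adjusted p = 6.56e-06). Sesn3, a sestrin that restrains the mTOR complex, rose by 0.83 (SE 0.0391, adjusted p = 1.87e-07). Mycn, a transcription factor of the Myc family, fell by 0.73 (SE 0.108, adjusted p = 0.000468) from 3.14, 3.01 and 2.78 FPKM to 1.83, 1.28 and 1.12 FPKM. Of 16 genes of ribosome quality control and hibernation, 7 were higher and 3 lower in EGR1OV, and 1 was higher and 1 lower in H/R. Their largest change was in the kinase Eif2ak2, which rose by 2.15 (SE 0.0819, adjusted p = 4.02e-08) and is also an interferon-induced gene.

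**Figure D5:**
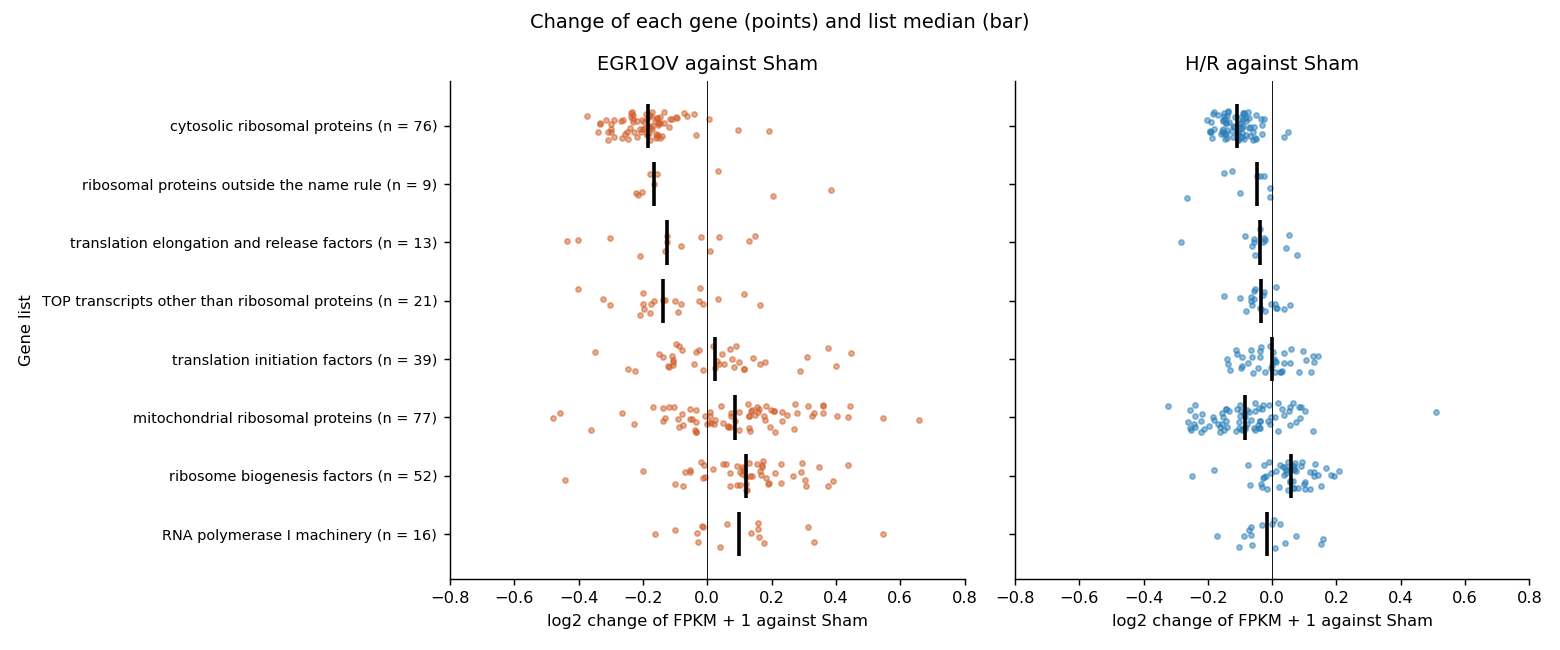
Log2 change of FPKM + 1 against Sham for each tested gene (points) of the 76 members and 7 other lists of the translation machinery, with the list median (bar), in EGR1OV and in H/R. Some of these other lists share genes. The members have the lowest median of the 8 lists in both panels, -0.18 and -0.11, and the medians of biogenesis factors lie above 0 in both, 0.12 and 0.06.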

How the data were processed

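The authors deposited FPKM values of every library in 1 table, not pooled over replicates. The submitters' processing notes name Bowtie2 2.2.3, HISAT2 2.1.0, TopHat2 and the build mm9, with no role or order, and the counter and annotation are not given in the sources used here. Gene positions were equal to GENCODE M21 (GRCm38) for 72 of 79 members, so coordinates are as in the table. The members, gene lists and tests were chosen with earlier results of these data known. Members always named were chosen for their roles, and the others were the 3 highest and 3 lowest in Sham, symbols ending in l, and in each comparison the 5 largest rises and falls at a mean of at least 5 FPKM. Some genes that this rule takes are not reported here and are left out of the plots that name genes, though counts and medians include them. From other lists up to 4 genes past the test with the largest change could be named.

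The test used log2(FPKM + 1), which makes changes of low genes look smaller, in 1 limma fit (version 3.58.1, R 4.3.3, eBayes with trend) of all 9 libraries. The filter was a mean of 0.5 FPKM or more and left 13985 genes. Tests were two-sided with Benjamini-Hochberg adjustment over all of them, and every adjusted p is from this fit unless a setting is named. The fold thresholds were 1.3 against Sham for EGR1OV and 1.2 for H/R, as in the study, and 1.3 between EGR1OV and H/R. Reads were recovered from FPKM, exon length and depth: of 162952 values of 1 to 1000 reads, 94.0% were whole within 0.02 reads. Reads carry no molecular identifiers, so they are not independent molecules. Copies were rows sharing at least 20 stretches of 50 bases with a member in GENCODE M21 transcripts. Only rows that were no member and had a pseudogene biotype, a Gm number as symbol or -ps in the symbol were taken. Each was assigned to the member with which it shared the most stretches. Python 3.11.15, numpy 2.4.6, pandas 2.3.3, Biopython 1.88 and matplotlib 3.10.9 were used, and the fit was tested on simulated data. Protein sequences were not used here, so no protein feature was computed. Alternatives were a pseudocount of 0.1, no filter, a filter at 5 FPKM, the replicate number as a block, median-ratio scaling, quantile normalization, no trend, only the groups compared, protein-coding genes, voom on recovered reads, each library left out, and, added after seeing the data, reads of copies summed into the member.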

Additional observations from a re-analysis of the deposited data

How the results depend on the processing

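In EGR1OV against Sham the count of lower members stayed between 57 and 66 in every setting run, and leaving out 1 library gave 57 to 65 lower and 1 higher, with 0 to 1 past 1.3-fold. Median-ratio scaling gave a median of -0.22 and 1 member past 1.3-fold, and quantile normalization gave 2 higher and 2 past 1.3-fold. In H/R against Sham the count of 26 lower members was 6 with no filter on low values, 7 after median-ratio scaling, 8 in limma without trend, 16 with only the 2 groups compared and 44 with voom on recovered reads, and 7 to 30 with 1 library left out. Its median ran from -0.14 to -0.086 with 1 library left out. In EGR1OV against H/R the 33 lower members became 22 to 37 and the 2 higher 2 to 4 with 1 library left out, and the median ran from -0.11 to -0.058. There quantile normalization gave 4 higher and 1 past 1.3-fold, voom gave 5 higher, and median-ratio scaling gave a median of -0.17. With 1 library left out the medians of EGR1OV against Sham ran from -0.20 to -0.17.

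Scaling also moved the calls over all genes. In H/R against Sham 1055 genes were lower and 580 higher, and 588 and 902 after median-ratio scaling. In EGR1OV against Sham 2766 were lower and 3651 higher, and 4071 and 2485 after quantile normalization. After quantile normalization 4 named genes changed sign with a call before or after it. These were Rplp0 to 0.022 and Rplp1 to 0.18 in EGR1OV against Sham, and to 0.11 and 0.29 against H/R. Eef1a1 changed to 0.025 and 0.25 against Sham and H/R, and the fibroblast marker Col1a2 to -0.0038 against H/R. With copy reads added Rpl23a changed to -0.18 in H/R. The cause of these shifts was not tested.

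Same-numbered libraries correlated between -0.021 and 0.062 in their deviations from the group means. Libraries of different numbers correlated between -0.068 and 0.067. These values do not show whether same-numbered libraries shared a mouse or culture. With the replicate block the H/R count was 12 lower members. Over protein-coding rows alone the members held 6.41% of Sham, 5.97% of H/R and 5.63% of EGR1OV FPKM. Of 4589 comparisons of a named gene under an alternative, 4229 kept their side of the threshold, 291 lost the call and 61 gained it. In 8 the sign changed with a call before or after the change of setting. Sign changes with no call in either fit are counted among the 4229.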
